A study of Ovis aries with 6 samples.

Results

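The intracellular lipolysis genes PNPLA2, ABHD5, LIPE, MGLL and LIPA were taken by symbol from a table of transcript levels in milk somatic cells of sheep. Such cells, pelleted from fresh milk, are mammary epithelial cells together with white blood cells. The lipolysis genes are 5 of 11285 genes with a symbol, and they hold 9 transcripts of the table. Of these transcripts, 7 were tested, those with a mean over the 6 libraries of 1 RPKM or more. RPKM is a read number divided by transcript length and by the total reads of the library. There were 3 libraries after the linseed diet and 3 after the control diet, both from the same 3 Comisana ewes, sampled around day 90 of lactation. In the linseed group the ewes were given grass, hay and a concentrate of which extruded linseed made up 20% of the dry matter, over 3 weeks. In the control group they had received hay with a commercial concentrate, also over 3 weeks. Per the labels' protocols every ewe had the control diet first, so diet and time between milkings cannot be told apart. Grass was named for the linseed group only, so linseed cannot be told apart from the rest of that diet either. Below, "with linseed" names the group. With 3 ewes and 3 libraries in a group, the spread between libraries holds differences between animals together with those of milking, library and counting.

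Lipolysis is the stepwise release of fatty acids from stored triacylglycerol. On the surface of the lipid droplet, PNPLA2 (adipose triglyceride lipase) removes the first fatty acid and ABHD5 (CGI-58) is its coactivator. LIPE (hormone-sensitive lipase) acts mainly on the diacylglycerol that remains, and MGLL splits monoacylglycerol, the last intermediate, into a fatty acid and glycerol. LIPA (lysosomal acid lipase) works in a different place: it hydrolyses triacylglycerol and cholesteryl esters inside the lysosome, a route used by macrophages that take up lipid. Linseed is rich in alpha-linolenic acid. The fatty acids of the milk and of its cells were not analysed here.

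The libraries held 4941935 to 19912996 reads with linseed and 8805705 to 22644050 reads with control, as solved from the RPKM steps. Transcripts of 7 milk protein genes took 1.28% to 30.2% of the reads of the linseed libraries and 4.38% to 47.8% of those of the control libraries, with sheep 3 lowest under both diets. Summed over their matched markers, macrophage genes (7 of 10 matched) had 782 to 1396 RPKM with linseed and 93.1 to 572 RPKM with control, and neutrophil genes (6 of 8) had 2467 to 3204 and 423 to 1136 RPKM, so that neither range overlapped between the diets. CD68, TREM2 and C1QA carried the macrophage sum and were higher with linseed in all 3 sheep; MRC1 and ITGAM, at most 15.3 RPKM, were lower with linseed in all 3 sheep, and CD14 was lower in sheep 2 and 3. S100A8 and S100A9 carried the neutrophil sum, while FCGR3A was lower with linseed in sheep 2 and 3. Epithelial markers (6 of 9) had 2713 to 42892 RPKM with linseed and 8873 to 123519 RPKM with control, and the ranges overlapped. CSN2 carried most of this sum and, like EPCAM, ELF5 and BTN1A1, was lower with linseed in all 3 sheep. KRT8 and LALBA were higher with linseed except in sheep 3. T and NK cell markers (4 of 8) had 55.9 to 119 and 6.94 to 487 RPKM, and B and plasma cell markers (6 of 6) had 8.33 to 30.4 and 1.37 to 27.5 RPKM. The fat cell markers (6 of 8) summed to 408 to 1894 RPKM with linseed and 54.5 to 1192 RPKM with control, almost all of it FABP4, while AQP7 was at 0 in every library and ADIPOQ was at 0 in every library except control sheep 2, at 0.0541 RPKM. In such mixed samples, fewer cells of a type and less RNA per cell cannot be told apart.

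The 5 genes differed widely in level, and their order was much the same in every library. With transcripts of a gene summed, LIPA ranked first and PNPLA2 ranked 2 in all 6 libraries. LIPA averaged 307 ± 310 RPKM with linseed and 184 ± 134 RPKM with control (SD, n = 3 each). PNPLA2 averaged 45.5 ± 14.8 and 27.7 ± 6.10 RPKM, and ABHD5 13.4 ± 2.03 and 19.5 ± 5.64 RPKM. MGLL averaged 17.1 ± 8.95 RPKM with linseed and 5.39 ± 4.13 RPKM with control. LIPE was the least abundant in 5 of the 6 libraries, at 2.18 ± 2.33 and 2.20 ± 1.13 RPKM; in control sheep 1, MGLL ranked below it. The order of ABHD5 and MGLL was not fixed: MGLL was above ABHD5 in linseed sheep 2 and 3 and below it in the other libraries. LIPA made up 61.5%, 63.2% and 89.3% of the summed RPKM of the 5 genes in linseed sheep 1, 2 and 3, and 47.5%, 87.8% and 74.2% in control sheep 1, 2 and 3. This share differed widely between sheep under both diets.

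**Figure D1:**
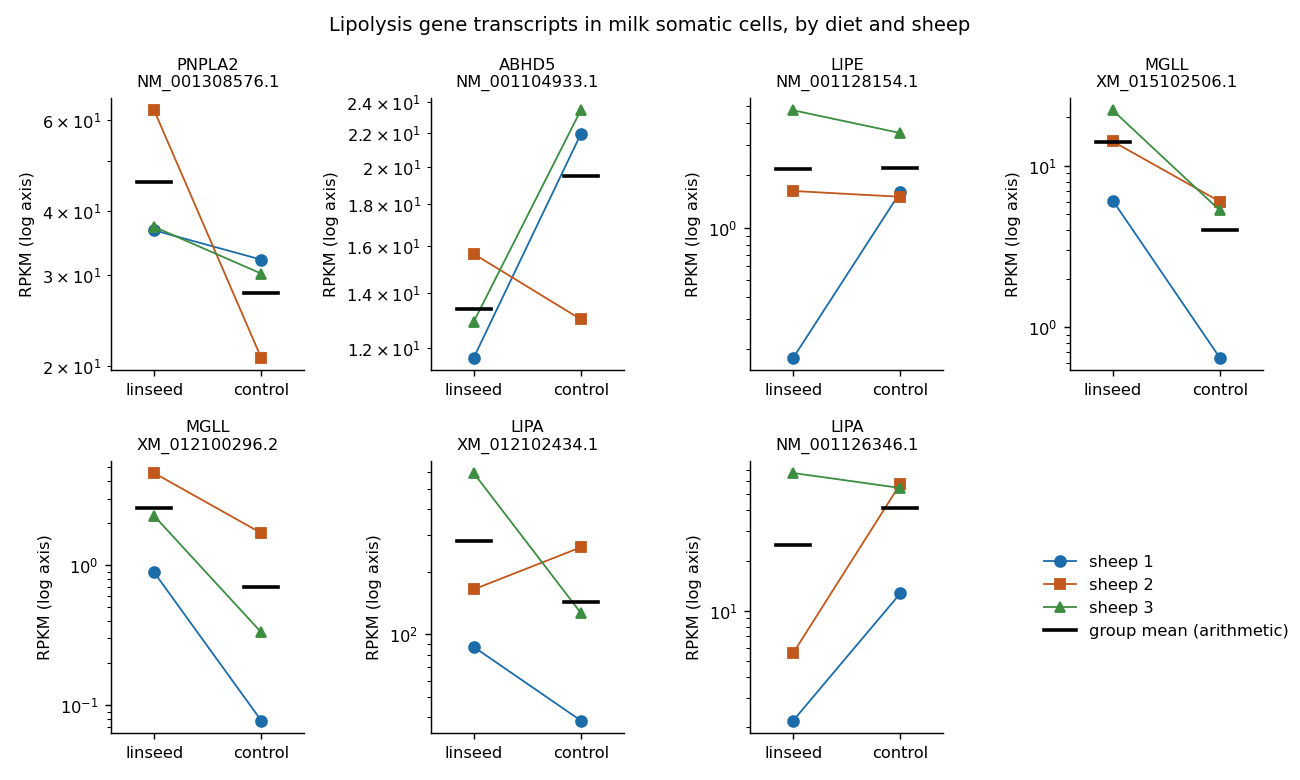
RPKM on a log axis of the 7 tested transcripts in each library, linseed left of control, with a line for each sheep and a black bar for the arithmetic group mean. PNPLA2 and MGLL XM_015102506.1 are the panels in which the linseed libraries all lie above the control libraries.

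Between the diets, none of the 7 tested transcripts passed limma's adjusted p of 0.05, and neither did any other transcript: 0 of 15891 (0%) were called, while 1351 (8.5%) were higher and 1113 (7%) lower at an unadjusted p under 0.05. In this fit, without the sheep as a block, MGLL XM_015102506.1 was the only tested lipolysis transcript under that unadjusted threshold. With the block, the unadjusted limma p was 0.0050 for MGLL XM_015102506.1, 0.0237 for LIPA NM_001126346.1 and 0.0365 for MGLL XM_012100296.2. In that block fit, 4287 of the 15891 tested transcripts were under 0.05. On the deposited RPKM, every linseed library lay above every control library in 2 of the 7 transcripts, PNPLA2 and MGLL XM_015102506.1. The same held for 13.3% of all tested transcripts. Both separations depend on the scaling. Milk protein reads took 47.8% of control sheep 1, 35.9% of control sheep 2 and 30.2% of linseed sheep 1. With them left out of the totals, control sheep 1 passes linseed sheep 1 in PNPLA2, which is then lower with linseed in sheep 1. In MGLL XM_015102506.1, control sheep 2 then passes linseed sheep 1. None of the 7 had every linseed library below every control library, against 7.83% of all tested transcripts. The number higher in all 3 sheep was 3 of 7, against 23% of all tested transcripts, and the number lower in all 3 sheep was 0 of 7, against 26.2%. These counts describe the 7 transcripts and set them apart from no other genes. The macrophage and neutrophil sums, carried by CD68, TREM2, C1QA, S100A8 and S100A9, did not overlap between the diets either and were higher with linseed, and the part of the cell makeup in the PNPLA2 and MGLL values was not tested.

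PNPLA2, the lipase of the first step, had 36.6, 62.6 and 37.2 RPKM in linseed sheep 1, 2 and 3, against 32.1, 20.7 and 30.2 RPKM in control sheep 1, 2 and 3 (NM_001308576.1, 1912 nt as solved from its RPKM steps). The lowest linseed library stood only a little above the highest control library, and linseed sheep 2 stood apart from the rest. Within sheep, the linseed level was 1.14, 3.02 and 1.23 times the control level. The fitted log2 change was 0.67 ± 0.58 (SE), with a limma adjusted p of 0.568. It was 0.24 without both libraries of sheep 2 and 0.45 with milk protein reads left out of the totals. PNPLA2 was well covered, with 346 to 1416 reads in each linseed library and 349 to 1391 in each control library.

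ABHD5, the coactivator that PNPLA2 needs for full activity, was lower with linseed in 2 of the 3 sheep. It had 11.7, 15.6 and 12.9 RPKM in linseed sheep 1, 2 and 3, against 21.9, 13.0 and 23.5 RPKM in control sheep 1, 2 and 3 (NM_001104933.1, 1283 nt). Sheep 1 and 3 had about the same linseed to control ratio, 0.532 and 0.551, while sheep 2 had 1.20. The groups overlapped through control sheep 2, and the log2 change was -0.47 ± 0.57 (SE; limma adjusted p = 0.694). The linseed libraries spread less than the control libraries.

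Set against each other, the lipase and its coactivator gave a ratio that did not overlap between the diets. The ratio of PNPLA2 to ABHD5, each in RPKM and so per length, was 3.14, 4.00 and 2.88 in linseed sheep 1, 2 and 3, against 1.47, 1.59 and 1.29 in control sheep 1, 2 and 3. It averaged 3.34 ± 0.586 with linseed and 1.45 ± 0.154 with control (SD, n = 3 each). Every linseed value lay above every control value, and the ratio was higher in all 3 sheep. A ratio within a library does not depend on how the library was scaled. The pair was chosen for its known partnership, with the values of both genes already known, so no test was made. In sheep 1 and 3 the difference lay mostly in ABHD5, and in sheep 2 in PNPLA2. The ratios of PNPLA2 to LIPE, MGLL to LIPE, MGLL to PNPLA2 and LIPA to PNPLA2 were also computed, and all of them overlapped between the diets. How often the ratio of any other pair of genes separates the diets was not computed.

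LIPE, which in fat cells is switched on by hormone signals through protein kinase A, was the gene with the thinnest data in the linseed group. It had 0.179, 1.63 and 4.73 RPKM in linseed sheep 1, 2 and 3, against 1.60, 1.51 and 3.50 RPKM in control sheep 1, 2 and 3 (NM_001128154.1, 2261 nt). These rested on 2, 22 and 213 reads with linseed and 82, 30 and 84 reads with control. The 2 reads of linseed sheep 1 gave a 95% exact Poisson interval of 0.0217 to 0.647 RPKM, which covers counting error only and lies below the other libraries. Sheep 3 had the highest LIPE level under both diets, and the groups overlapped fully. The log2 change of -0.24 ± 0.65 (SE; limma adjusted p = 0.873) turned to 0.33 without linseed sheep 1 and to 0.03 without control sheep 3. The reference lists 5 transcripts of LIPE, of which 1 was matched in the table.

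MGLL, which completes lipolysis and also ends the signal of the endocannabinoid 2-arachidonoylglycerol, had the largest positive log2 change of the 7. Its main transcript XM_015102506.1 (1228 nt) had 6.10, 14.2 and 22.1 RPKM in linseed sheep 1, 2 and 3, against 0.647, 6.01 and 5.30 RPKM in control sheep 1, 2 and 3. On the deposited RPKM the groups did not overlap, but linseed sheep 1 lay close to control sheep 2. Their 95% exact Poisson intervals overlapped, at 4.29 to 8.40 RPKM on 37 reads and 4.64 to 7.66 RPKM on 65 reads. Control sheep 1 was far below all others, on 18 reads (95% exact Poisson interval 0.384 to 1.02 RPKM). Within sheep, the linseed level was 9.42, 2.36 and 4.17 times the control level.

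The fitted log2 change of XM_015102506.1 was 1.70 ± 0.74 (SE), with a limma p of 0.0414 and an adjusted p of 0.307. With the sheep as a block the change was 1.70 ± 0.51 (SE) and the adjusted p was 0.0692, still above the threshold; with a length correction or voom beside the block, the adjusted p was 0.126 and 0.112. Without control sheep 1, which had 18 reads of this transcript in the deepest library (22644050 reads), the change was 1.03. The block fit called 203 transcripts (1.28%) higher and 213 (1.34%) lower among all tested, and none of the 7. With the length correction or voom beside the block, 0 were called, at a smallest adjusted p of 0.0865 and 0.0956.

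A less abundant MGLL transcript, XM_012100296.2 (1136 nt), had 0.891, 4.56 and 2.25 RPKM in linseed sheep 1, 2 and 3, against 0.0777, 1.70 and 0.332 RPKM in control sheep 1, 2 and 3. It was higher with linseed in all 3 sheep, but on only 2 to 17 reads in the control libraries, and the groups overlapped (log2 change 1.05 ± 0.58 SE; limma adjusted p = 0.391). The 2 other MGLL transcripts had a mean under 1 RPKM and were not tested. XM_012100294.2 had 0.265 to 0.437 RPKM with linseed and 0.0746 to 1.17 RPKM with control. XM_012100295.2 had 0 to 0.128 RPKM with linseed and 0.144 to 0.391 RPKM with control, on 0 to 9 reads a library. With its 4 transcripts summed, MGLL had 7.31, 19.1 and 24.9 RPKM in linseed sheep 1, 2 and 3, against 1.05, 9.27 and 5.85 RPKM in control sheep 1, 2 and 3. The summed level was higher with linseed in all 3 sheep, but linseed sheep 1 lay below control sheep 2, so that the groups overlapped. The main transcript held 74.1% to 88.8% of MGLL RPKM with linseed and 61.6% to 90.6% with control.

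Over the libraries, MGLL ran close to a marker of macrophages. Among 5976 tested genes with a symbol, the profile most like that of XM_015102506.1 over the 6 libraries was that of VIM (vimentin, a filament protein of mesenchymal and white blood cells), with a root mean square difference of 0.0810 in log2(RPKM + 1) after each gene was centred on its own mean. NME4, a mitochondrial nucleoside diphosphate kinase, came next at 0.158, and CD68, a lysosomal protein used as a macrophage marker, came after it at 0.173. CD68 had 368, 601 and 923 RPKM in linseed sheep 1, 2 and 3, against 70.4, 376 and 305 RPKM in control sheep 1, 2 and 3. Like MGLL, CD68 was lowest in control sheep 1 and highest in linseed sheep 3, although its groups overlapped. Other macrophage markers did not follow MGLL: MRC1, the mannose receptor, had 0, 1.23 and 5.73 RPKM in linseed sheep 1, 2 and 3, against 2.77, 7.36 and 12.4 RPKM in control sheep 1, 2 and 3.

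**Figure D2:**
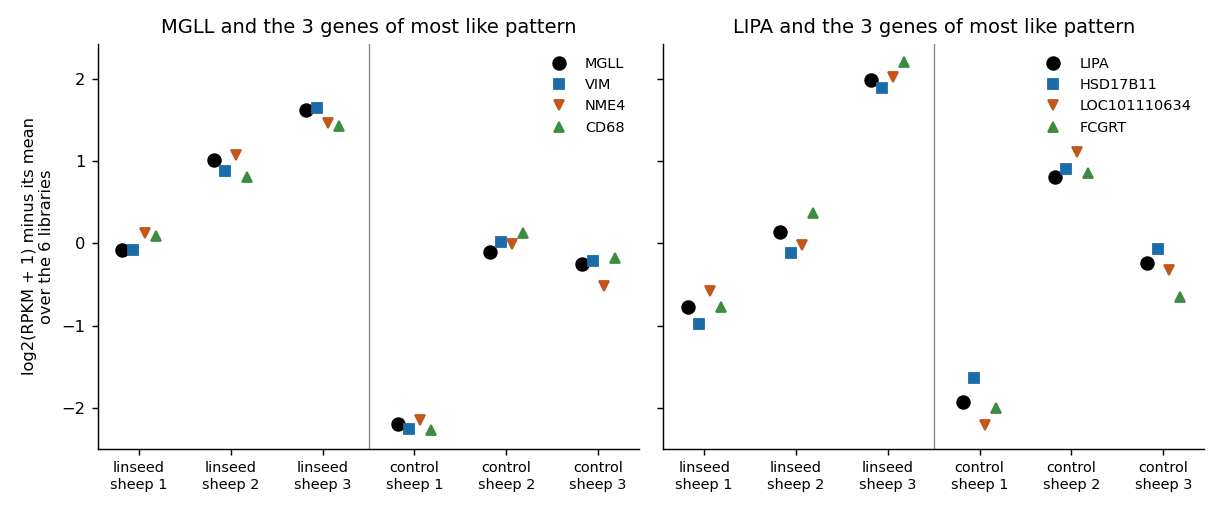
Centred log2(RPKM + 1) in each library, linseed left of control, for MGLL and for LIPA by their most abundant transcripts, each with the 3 genes of most like pattern among 5976. The points of VIM and CD68 lie close to those of MGLL in every library, and those of HSD17B11 and FCGRT follow LIPA.

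LIPA, the lysosomal lipase, showed no common direction over the sheep. Its main transcript XM_012102434.1 (2549 nt) had 87.1, 164 and 595 RPKM in linseed sheep 1, 2 and 3, against 38.6, 262 and 127 RPKM in control sheep 1, 2 and 3. It was higher with linseed in sheep 1 and 3 and lower in sheep 2, and the groups overlapped. The log2 change was 0.90 ± 0.88 (SE; limma adjusted p = 0.614), and it was 0.13 without linseed sheep 3 and 0.17 without control sheep 1. This transcript was above 97.7% of all tested transcripts in mean RPKM and was read 1097 to 30203 times in the linseed libraries and 2227 to 5874 times in the control libraries.

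The other LIPA transcript, NM_001126346.1 (1200 nt), had 2.19, 5.58 and 67.0 RPKM in linseed sheep 1, 2 and 3, against 12.7, 57.6 and 54.5 RPKM in control sheep 1, 2 and 3. It was lower with linseed in sheep 1 and 2, at 0.173 and 0.0967 times the control level, and slightly higher in sheep 3, at 1.23 times. The log2 change was -1.65 ± 1.05 (SE; limma adjusted p = 0.442), or -2.95 without linseed sheep 3 and -0.75 without linseed sheep 1. In sheep 1 the LIPA transcripts thus had log2 changes of opposite sign, 1.15 for the main one and -2.10 for the other.

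As a share of all LIPA RPKM, NM_001126346.1 separated the diets. It took 2.46%, 3.28% and 10.1% in linseed sheep 1, 2 and 3, against 24.8%, 18.0% and 30.0% in control sheep 1, 2 and 3. Each linseed value lay below each control value, and the mean share was 5.29% ± 4.21 with linseed and 24.3% ± 6.01 with control (SD, n = 3 each). This comparison was chosen after the values had been seen. The shares in linseed sheep 1 and 2 rested on 13 and 40 reads of NM_001126346.1, against 345 to 1601 reads in the other libraries. Among 954 genes with at least 2 tested transcripts, the log2 ratio of the less to the more abundant one was lower in every linseed library than in every control library in 5.56%, and higher in 7.13%. For LIPA this log2 ratio differed by -2.56 ± 0.62 (SE), with a limma p of 0.00326 and an adjusted p of 0.617 over the 954 genes, of which 0 passed and 70 had an unadjusted p under 0.05. The MGLL log2 ratio differed by -0.65 ± 0.63 (SE; limma adjusted p = 0.768), but its sign rested on the pseudocount of 1 RPKM. With a pseudocount of 0.1 RPKM it differed by -0.0049 ± 0.82 (SE). Without a pseudocount, XM_012100296.2 averaged 15.0% ± 7.80 of MGLL RPKM with linseed and 10.5% ± 6.87 with control (SD). How the authors divided reads shared by transcripts of a gene is not given in the sources used here.

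**Figure D3:**
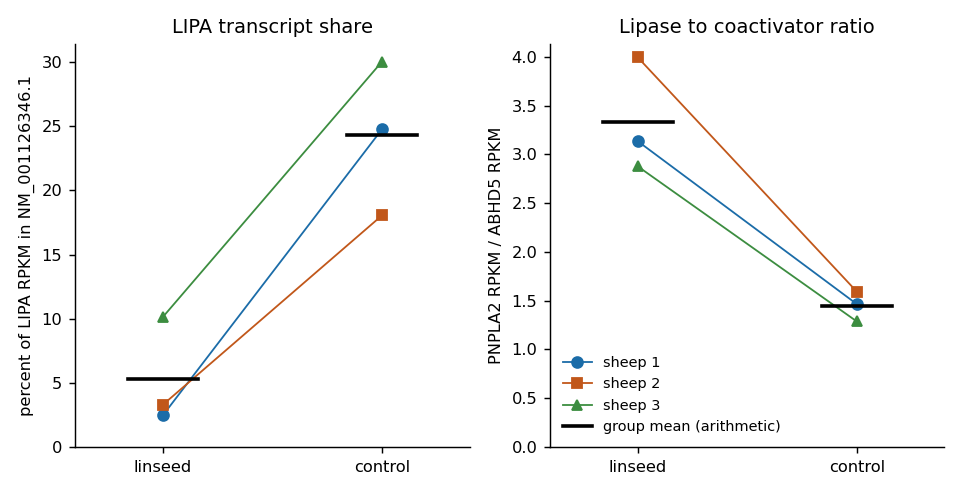
Left, the percent of LIPA RPKM in NM_001126346.1; right, the ratio of PNPLA2 to ABHD5 RPKM, in each library with a line for each sheep and a black bar for the group mean, linseed left of control. The LIPA share is 2.46% to 10.1% with linseed and 18.0% to 30.0% with control, and the ratio is 2.88 to 4.00 and 1.29 to 1.59.

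The genes most like LIPA in pattern were HSD17B11, a dehydrogenase found on lipid droplets, at a root mean square difference of 0.199, LOC101110634 at 0.205, and FCGRT, the neonatal Fc receptor, at 0.218. HSD17B11 had 12.1, 22.9 and 95.1 RPKM in linseed sheep 1, 2 and 3, against 7.36, 47.4 and 23.6 RPKM in control sheep 1, 2 and 3, thus highest in linseed sheep 3 and, among controls, in sheep 2, as LIPA was. PNPLA2 was most like IRF2BP1 (0.169), FAAP100 (0.185) and POLR1G (0.205). ABHD5 was most like CCDC77 (0.116), NXF1 (0.123), an mRNA export factor, and SNAI1 (0.130), and LIPE most like FBXL12 (0.126), MTCH1 (0.150) and SSRP1 (0.158). These likenesses are a description over 6 libraries that share their diets and sheep.

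**Figure D4:**
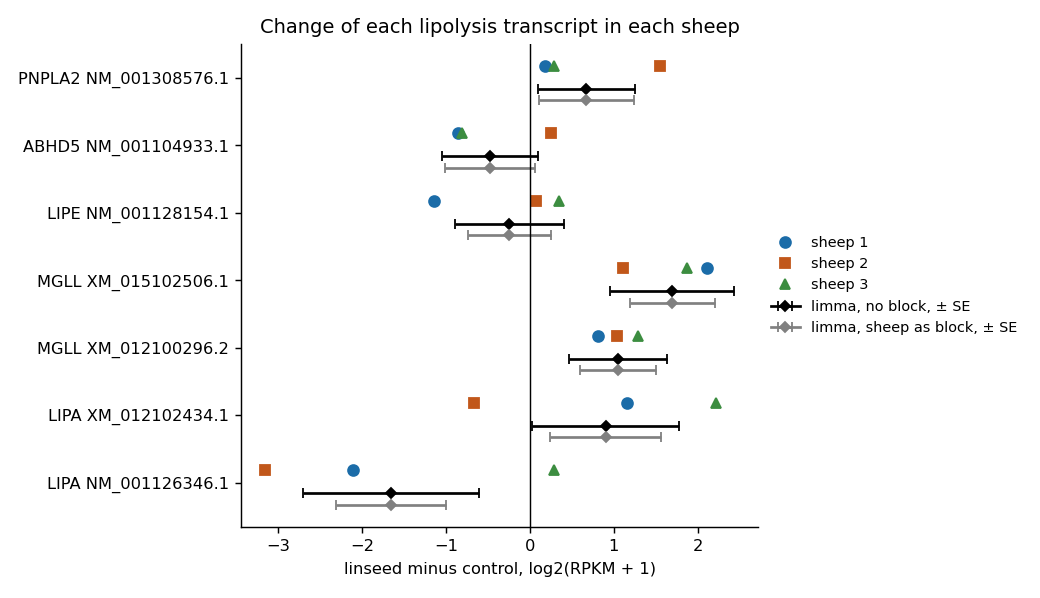
Linseed minus control in log2(RPKM + 1) for the 7 tested transcripts: coloured points for each sheep, and diamonds for the limma change with its SE, black without and grey with the sheep as a block. MGLL lies above 0 in every sheep for both transcripts, and the LIPA transcripts lie on opposite sides of 0 in sheep 1 and on the same side in sheep 2 and 3.

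Around the 5 genes, lists of the surrounding pathway showed no shared direction, and no gene in them passed limma without the block. Of 19 genes for the lipid droplet coat and its lipase inhibitors, 9 were tested. In all 3 sheep, 1 of them was higher and 2 were lower, and their median log2 change was -0.14, against -0.25 for all 5976 tested genes, each by its most abundant transcript. The share of all these genes that was higher in every sheep was 22.7%, and the share lower in every sheep 30.8%. With milk protein reads left out of the scaling the medians were -0.36 for the list and -0.44 for all genes, and with a length correction 0.12 and -0.19. RAB18, a small GTPase on droplets, averaged 15.8 ± 13.7 RPKM with linseed and 68.8 ± 19.1 RPKM with control (SD, n = 3 each; log2 change -2.32 ± 0.68 SE; limma adjusted p = 0.263). Its groups did not overlap. The endosomal GTPase gene RAB7A (-1.14 ± 0.71 SE) was lower in all 3 sheep, and AUP1, a droplet protein of lipid storage and protein degradation, was higher in 2 of 3 (1.41 ± 0.80 SE). PLIN2, the main droplet coat protein of milk-secreting cells, averaged 48.1 ± 17.1 and 71.7 ± 17.8 RPKM, and HILPDA, which inhibits PNPLA2, 17.5 ± 22.8 and 15.0 ± 11.8 RPKM. G0S2, the other inhibitor of PNPLA2 in the list, and PLIN3 found no match and were not analysed here. PLIN1 and CIDEC, coat proteins of fat cell droplets, had means of 0.138 and 0.0132 RPKM.

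Of 20 other hydrolases of neutral lipids and monoacylglycerol, 6 were tested; 0 were higher and 2 lower in every sheep, and the median log2 change was -0.38. PNPLA8, a phospholipase of the PNPLA2 family, had 0.906, 0.0937 and 2.69 RPKM in linseed sheep 1, 2 and 3, against 12.7, 8.84 and 6.68 RPKM in control sheep 1, 2 and 3, so that its groups did not overlap. Its log2 change of -2.36 ± 0.63 (SE) had a limma adjusted p of 0.263, and 0.0448 with the block; it was the only gene of these lists that passed in either fit. With a length correction or voom beside the block, the adjusted p was 0.101 and 0.0986, so that the call was lost. With transcripts summed to genes beside the block, the limma adjusted p was 0.0471 and the call stayed. DDHD2, a triacylglycerol hydrolase known from brain, was also lower in all 3 sheep (-1.47 ± 0.72 SE; limma adjusted p = 0.347). ABHD4, a lipase of N-acyl phospholipids, had a log2 change of -0.67 ± 0.72 (SE). ABHD6, which hydrolyses monoacylglycerol as MGLL does, had 1.32 ± 1.05 RPKM with linseed and 1.55 ± 1.73 RPKM with control (SD, n = 3 each), well below MGLL with linseed.

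The signalling that drives lipolysis in fat cells was represented by 10 tested genes of 32, of which 1 was higher and 1 lower in every sheep, and whose median log2 change was -0.57. PRKAR1A, a regulatory subunit that holds protein kinase A inactive, averaged 222 ± 80.7 RPKM with linseed and 79.7 ± 42.7 RPKM with control (SD, n = 3 each; log2 change 1.57 ± 0.66 SE; limma adjusted p = 0.297), without overlap. PRKAR2A, a regulatory subunit of the second type, had -1.09 ± 0.76 (SE). The catalytic subunit gene PRKACA (-0.63 ± 0.77 SE) was lower in 2 of 3 sheep. PDE3B, a phosphodiesterase that opposes this signal, was lower in all 3 sheep but rested on control sheep 3, at 46.6 RPKM against 0.757 and 1.09 RPKM in control sheep 1 and 2.

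Of 21 genes that handle the released fatty acids and glycerol, 12 were tested, of which 3 were higher and 2 lower in every sheep, and the median log2 change was 0.51. ANGPTL4, a secreted inhibitor of lipoprotein lipase, averaged 77.0 ± 29.2 RPKM with linseed and 26.3 ± 5.85 RPKM with control (SD, n = 3 each; log2 change 1.47 ± 0.59 SE; limma adjusted p = 0.292). The genes of carnitine palmitoyltransferases, which bring fatty acids into mitochondria, had changes of both signs: CPT1B had 1.03 ± 0.55 (SE), CPT1A -1.17 ± 0.78 (SE) and CPT2 -1.33 ± 0.62 (SE), and in ANGPTL4, CPT1B and CPT2 the groups did not overlap. FABP4, a fatty acid carrier of fat cells and macrophages that binds LIPE, averaged 980 ± 799 and 482 ± 619 RPKM.

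Of 23 genes for lysosomal lipid handling, 14 were tested, of which 6 were higher and 4 lower in every sheep, and the median log2 change was 0.32. The protease gene CTSB had a log2 change of 1.52 ± 0.72 (SE; limma adjusted p = 0.335). The lysosomal membrane gene LAMP2 had -2.18 ± 0.91 (SE; limma adjusted p = 0.297). The proteins that export the cholesterol freed by LIPA pointed apart: NPC2, the soluble carrier, was higher in all 3 sheep (0.99 ± 0.64 SE) and NPC1, the membrane transporter, lower in all 3 (-1.07 ± 0.60 SE), and both groups overlapped. All these lists were chosen with earlier results of these data known.

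**Figure D5:**
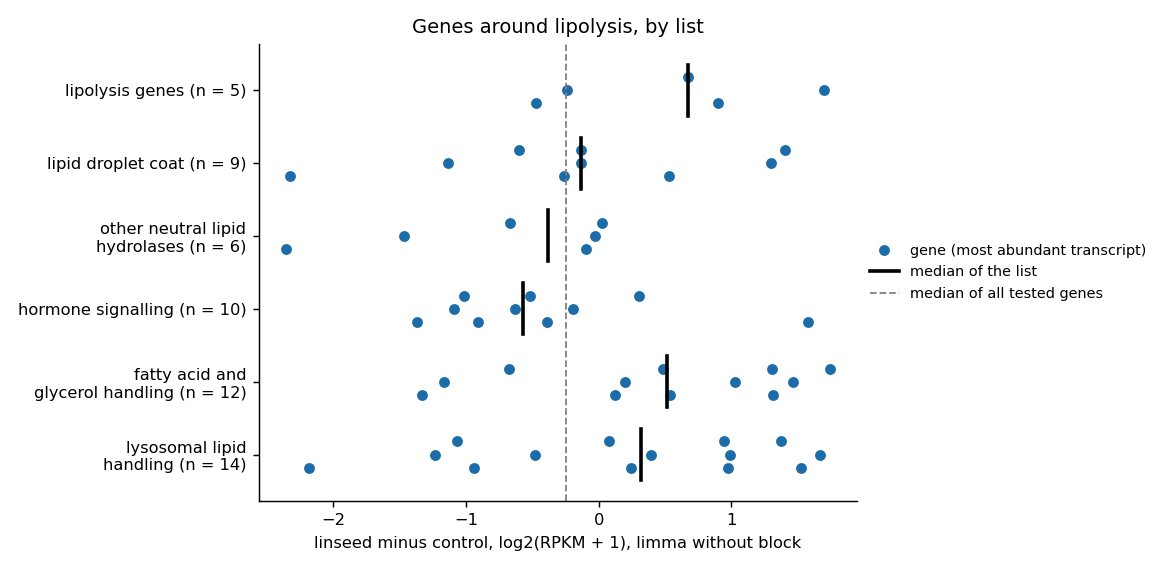
Log2 change of each tested gene by its most abundant transcript, for the 5 lipolysis genes and the 5 surrounding lists, with the median of each list as a black bar and that of all tested genes as a dashed line. In every list the genes fall on both sides of 0.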

How the data were processed

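The authors deposited 1 table of RPKM values for 49705 RefSeq transcripts with a column per library. The submitters' processing notes name Trimmomatic 0.33 (read trimming); aligner, build and counter: not given in the sources used here. Groups were taken from the letter of the sample title read with the series design. Accessions were matched without their version to the RefSeq gene table of ARS-UI_Ramb_v3.0, used for names only: 15836 (31.9%) had a symbol. Of the RefSeq transcripts listed there, 1 of 1 was found for PNPLA2, 1 of 2 for ABHD5, 1 of 5 for LIPE, 4 of 7 for MGLL and 2 of 6 for LIPA.

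Library totals, transcript lengths and whole reads were solved from the RPKM steps, with a tolerance of 0.002 reads; they summed to 99.4% to 99.8% of the totals. Intervals on reads cover counting error only. The 15891 transcripts whose mean reached 1 RPKM were compared as log2(RPKM + 1), a scale that understates the change of low transcripts, with limma 3.58.1 in R 4.3.3 (mean-variance trend, Benjamini-Hochberg adjustment over all of them, called under 0.05). The code was tested on simulated data.

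The same ewes gave both groups, by the animal identifiers in the labels. Across transcripts, the deviations of a sheep's libraries from the group means had correlations of 0.183 in sheep 1, 0.246 in sheep 2 and 0.396 in sheep 3. Between libraries of different sheep they ran from -0.397 to 0.239. The highest of these, linseed sheep 2 against control sheep 1, was above the value of sheep 1 and close to that of sheep 2. The main fit had no block. Other settings were a sheep block, pseudocounts of 0.1 and 5, no filter or at least 5 RPKM, 3 other scalings, a length correction, voom on the solved reads, transcripts summed to genes, and libraries or sheep left out. The voom weights came from a design of diet only, also where the fit itself held the sheep block.

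The members, lists and named-gene rule were chosen with earlier results of these data known. Each list gives its 3 genes of smallest p and a fixed set, except a few that are not reported here, and each member its 3 genes of smallest root mean square difference. No protein, promoter or genome sequence was used here.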

Additional observations from a re-analysis of the deposited data

How the results depend on the processing

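Under 21 other settings, 145 changes of the 7 lipolysis transcripts were recomputed; 142 kept their direction and 0 passed limma's adjusted p of 0.05. With transcripts summed to genes, LIPA had a log2 change of 0.58 with and without the sheep as a block, the sign of its main transcript and not of NM_001126346.1. The block changed no call of a lipolysis transcript. Among all tested, the number called was 416 with the block, and 452 of 14805 when transcripts were summed to genes with the block, against 0 without it; it was also 0 with the block and a length correction, or with the block and voom on the solved reads. The fits with the block and either voom or summed genes were added after the data were seen. The 3 changes that turned were those of LIPE: 0.33 without linseed sheep 1, 0.03 without control sheep 3 and 0.21 without both libraries of sheep 1; linseed sheep 1 held 2 LIPE reads, and the cause was otherwise not tested. With each library left out in turn, the log2 change ranged from 1.03 to 2.16 for MGLL XM_015102506.1, 0.66 to 1.44 for MGLL XM_012100296.2, 0.43 to 0.80 for PNPLA2, -0.73 to -0.32 for ABHD5, -0.81 to 0.33 for LIPE, 0.13 to 1.53 for LIPA XM_012102434.1 and -2.95 to -0.75 for LIPA NM_001126346.1. Other settings moved values by over 1.5 times, always with the same sign. For MGLL XM_012100296.2 the change was 2.10 and 0.39 with pseudocounts of 0.1 and 5, 2.78 with voom (2.52 with the block) and 0.68 with the length correction, and for MGLL XM_015102506.1 it was 1.06 with a pseudocount of 5. LIPE ranged from -0.69 (pseudocount 0.1) to -0.04 (pseudocount 5). Quantile normalization gave 0.44 for LIPA XM_012102434.1 and 0.41 for PNPLA2, which had 0.45 with milk proteins left out; the length correction gave -0.77 for ABHD5. Depth limits LIPE and the less abundant MGLL transcripts most.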
